A study of Gallus gallus with 10 samples.

Results

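The genes described here make sex steroids or receive sex hormones: the cholesterol carrier STAR, the enzymes CYP17A1, CYP19A1, SRD5A1 and HSD17B4, the oestrogen receptors ESR1 and ESR2, the progesterone receptor PGR and the follicle-stimulating hormone receptor FSHR. They were found as every probe set of the array whose platform annotation gives 1 of these 9 symbols, which yielded 11 of the 38535 probe sets and 9 of the 13009 named genes, with 2 each for CYP19A1 and FSHR and 1 for each other gene. RNA came from whole hearts of chicken embryos, as 5 pools of males and 5 pools of females, lettered A to E within each sex, with 1 single-colour array per pool. The sources used here do not give the strain, the age of the embryos, how many went into each pool or whether any embryo went into more than 1, and no treatment other than the harvest is labelled. Nothing says that the pools are biologically separate, so every p-value rests on pool-to-pool spread alone and that spread may be technical.

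Sex steroids are made from cholesterol, which STAR helps to move into the mitochondrion. CYP17A1 then turns progestins toward androgens, CYP19A1 (aromatase) turns androgens into oestrogens, SRD5A1 reduces testosterone to the stronger androgen dihydrotestosterone, and HSD17B4 oxidises the oestrogen oestradiol to the weaker oestrone. ESR1, ESR2 and PGR are nuclear receptors that act as hormone-dependent transcription factors, while FSHR is a membrane receptor known mainly from gonadal cells. In chicken embryos the gonads are the main source of these steroids, and aromatase activity there is a known feature of the developing ovary. In birds, males carry a pair of Z chromosomes and females 1 Z and 1 W. HSD17B4 is annotated on Z, and the others are on autosomes, with ESR1 and FSHR on chromosome 3, ESR2 on 5, PGR on 1, CYP17A1 on 6, CYP19A1 on 10, SRD5A1 on 2 and STAR on 22 in RefSeq's annotation of GRCg7b.

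The arrays had been brought to a common level before deposit, with a mean of 2500.5 to 2500.6 after trimming 2% at each end, and their medians lay between 605 and 735 intensity units. The sex labels fitted the W genes: HINTW, the W relative of HINT1, averaged 127 in male pools and 122991 in female pools, and HNRNPKL and UBE2R2L averaged 233 and 206 in male pools, against 8110 and 5531 in female pools. All 11 heart muscle marker genes on the array, among them TNNT2 with means of 197378 in males and 208131 in females, passed the filter on dim probe sets described next. The log2 ratio of 3′ to 5′ control probe sets of actin, a sign of RNA integrity, ranged from 0.63 to 0.81 in males and from 0.55 to 0.81 in females. Of 23063 tested probe sets, 407 (1.76%) passed an adjusted p of 0.05 in either direction in limma, and 348 of them (1.51% of those tested) were higher in males. Through the brightest probe set of each gene, 229 of 10284 genes (2.23%) passed, 201 of 492 Z genes in the male direction (40.9%) and 16 of 9765 autosomal genes in either direction (0.164%).

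Of these genes only HSD17B4 was bright, and only HSD17B4 passed the test between males and females. Its probe set averaged 17000 ± 907 in male pools and 9565 ± 788 in female pools (SD, n = 5 each) and lay at percentile 93.7 of the mean log2 intensities of all non-control probe sets. The other 10 probe sets lay at or below percentile 46.8. Probe sets in the lowest 40% by mean log2 intensity, about 363 units when turned back from that scale, were left out of the main test. Of the 11, 5 fell there: both probe sets of CYP19A1, those of ESR2 and STAR, and the second of FSHR. The plain mean of ESR2 was 376, above 363, but its mean log2 value was under the cutoff. ESR2, CYP19A1 and STAR were thus below the filter altogether, and 6 probe sets of 6 genes were tested.

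The W genes in males and a group of unassigned probe sets were used as a rough guide to low intensities on these arrays. Neither is a proven blank, since the W genes have relatives outside W that males carry, and what the unassigned probe sets target is not given in the files. In males, which have no W, the highest mean of the 3 W genes was 233 units, and single male arrays reached 318 for HNRNPKL. A group of 541 probe sets, whose names begin with a genome-record prefix and which the annotation assigns to no chicken gene, had a median of 82.6 and a 95th percentile of 254, and 5 of them (0.924%) exceeded the filter. By mean log2 value ESR1, PGR, CYP17A1, SRD5A1 and the first FSHR probe set exceeded 99.1% to 99.8% of this group. ESR2 exceeded 97.8% of it, STAR 96.5% and the second FSHR probe set 95.9%. The CYP19A1 probe sets exceeded 86.1% and 14.8%. Brightness also depends on the probes, so these values place a probe set among dim ones without measuring how much RNA was present, and no detection calls were used here.

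**Figure D1:**
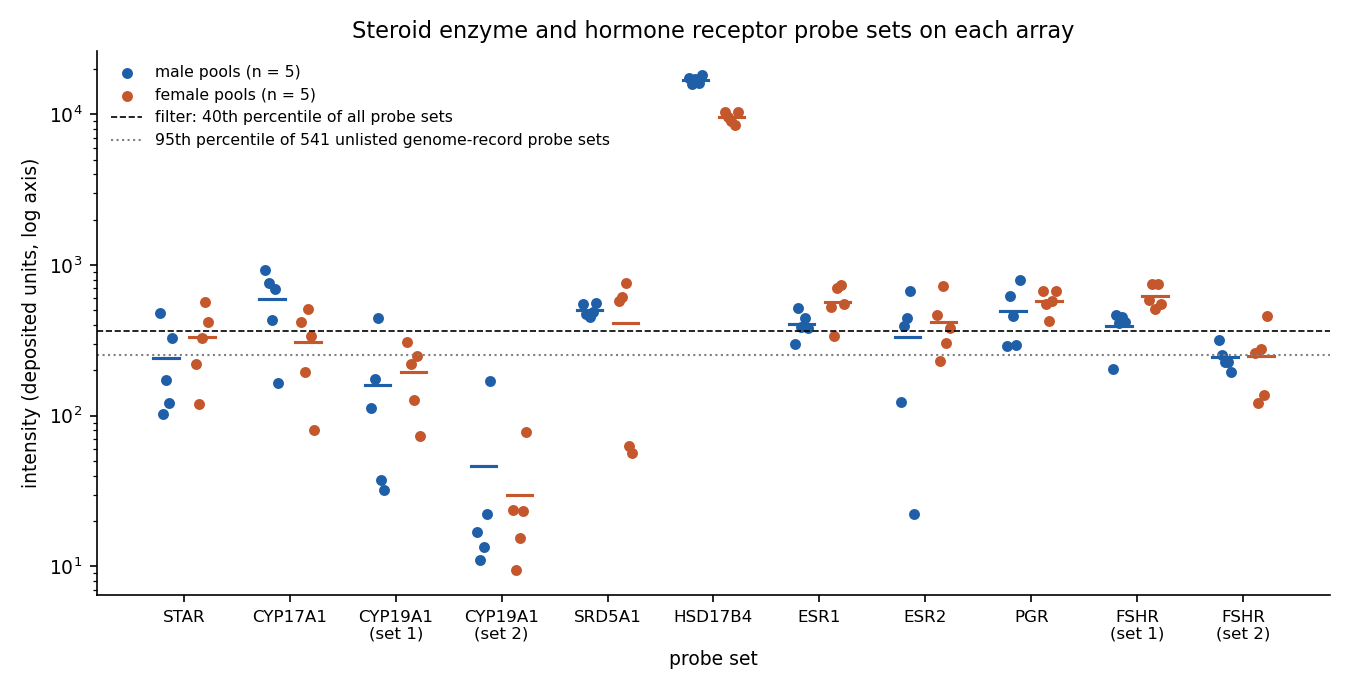
Intensity of each of the 11 probe sets (log axis, deposited units) on every array, with male pools left of female pools, a bar at each mean of 5 arrays, and horizontal lines at the filter of 363 and at the 95th percentile of 254 of the unassigned probe sets. The filter acts on mean log2 values, so a bar of plain means can lie above its line for a probe set left out. HSD17B4 stands alone at 8541 to 18121, with all male arrays above all female arrays, while the other probe sets lie between 9.44 and 922.

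STAR, which delivers cholesterol to the first enzyme of the pathway, was dim in both sexes. Its probe set read 480, 103, 172, 121 and 329 in males A to E, against 221, 120, 329, 573 and 417 in females A to E. The sexes overlapped, and the probe set lay at percentile 32.4, below the filter. Without the filter, where 405 of 38439 probe sets (1.05%) passed, its difference on the log2(intensity + 16) scale, male minus female, was -0.49 ± 0.53 (SE, adjusted p = 0.899).

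CYP17A1 lay just above the filter, at percentile 40.2. Its probe set read 922, 759, 429, 693 and 164 in males A to E and 421, 196, 510, 337 and 80.2 in females A to E. Array E was the lowest in both sexes, and males A, B and D exceeded every female array, while males C and E lay within the female range. The log2 difference of 0.93 ± 0.52 (SE) had a 95% interval from -0.18 to 2.04 and did not pass the test (adjusted p = 0.647).

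Aromatase, CYP19A1, was near background on average with both of its probe sets. The first, at percentile 21.5, read 112, 175, 447, 37.3 and 32.01 in males and 310, 220, 128, 251 and 73.9 in females. The second, at percentile 1.26, read 16.8, 11.1, 13.4, 22.3 and 169 in males and 23.6, 9.44, 15.4, 23.3 and 77.7 in females, so that pool E was the highest of either sex here and the lowest of either sex on the first probe set. Without the filter the log2 differences were -0.64 ± 0.64 and 0.13 ± 0.54 (SE), of opposite sign, with adjusted p of 0.890 and 0.981. A sex difference in aromatase RNA was not detectable at these intensities.

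SRD5A1 showed an uneven pattern within females. Its probe set, at percentile 40.05, read 555, 476, 449, 487 and 561 in males A to E and 578, 612, 755, 63.4 and 56.9 in females A to E. Females A to C were above every male array, and females D and E were far below them. The log2 difference of 0.90 ± 0.62 (SE, 95% interval -0.43 to 2.23) thus combined females on both sides of the males and did not pass the test (adjusted p = 0.743).

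HSD17B4, which oxidises oestradiol and also belongs to the peroxisomal fatty acid oxidation pathway, was higher in males on every array. Its probe set read 17455, 15963, 17281, 16182 and 18121 in males A to E, against 10348, 9568, 9053, 8541 and 10315 in females A to E, so the lowest male array was well above the highest female array. The log2 difference was 0.83 ± 0.067 (SE), with a 95% interval of 0.69 to 0.97 and an adjusted p of 1.98e-06. On the offset scale this is a ratio of 1.78, with an interval of 1.61 to 1.96, and the female level was 56.2% of the male level. Its standard deviation within sexes, pooled over both, was 0.10 on the log2 scale, beside a median of 0.12 for the tenth of probe sets of like brightness. Taken singly it was 0.077 in males and 0.12 in females. In whole hearts, fewer cells of a type that expresses a gene and less RNA per cell cannot be told apart.

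Against this, none of the 3 steroid receptors passed. ESR1, the receptor through which oestrogen acts in much of the reproductive tract, read 300, 520, 389, 449 and 383 in males and 530, 340, 707, 737 and 548 in females, at percentile 45.1. Females A, C, D and E exceeded every male array, but female B lay within the male range. The log2 difference was -0.45 ± 0.28 (SE, 95% interval -1.04 to 0.15, adjusted p = 0.705).

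ESR2, the second oestrogen receptor, was below the filter at percentile 35.9 and had the widest male range of the receptors. Its probe set read 124, 396, 445, 668 and 22.3 in males and 464, 230, 729, 305 and 380 in females. The sexes overlapped, and without the filter the log2 difference was -0.80 ± 0.66 (SE, adjusted p = 0.854).

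PGR, the progesterone receptor and in the hen oviduct a well-known oestrogen-induced gene, lay at percentile 46.8. Its probe set read 289, 624, 460, 297 and 795 in males and 671, 549, 428, 578 and 670 in females. The highest and the lowest of the 10 arrays were both male, and the log2 difference of -0.31 ± 0.30 (SE, 95% interval -0.96 to 0.34) did not pass (adjusted p = 0.830).

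FSHR gave a separation on 1 probe set that its other probe set did not show. The first, at percentile 45.7, read 203, 466, 415, 453 and 421 in males and 583, 745, 513, 743 and 548 in females, so every female array exceeded every male array. Its log2 difference was -0.69 ± 0.28 (SE, 95% interval -1.29 to -0.10), with an unadjusted p of 0.0254 and an adjusted p of 0.432 in limma, and 742 of the 23063 tested probe sets (3.22%) separated the sexes in this way. The second, at percentile 31.4, read 319, 251, 228, 226 and 194 in males and 259, 122, 279, 137 and 458 in females, which overlap, and its log2 difference without the filter was 0.09 ± 0.45 (SE, adjusted p = 0.985).

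HSD17B4 and the first FSHR probe set were the 2 of 11 probe sets without overlap between the sexes, in opposite directions. Both passed the filter, above which 742 of the 23063 tested probe sets (3.22%) had no overlap. Among the 10 probe sets other than HSD17B4, 6 had a lower mean log2 value in males and 4 a higher one, beside 53.3% lower in males over all tested probe sets. Of these 10, 5 lay below the filter and so are not among the tested probe sets. The 95% intervals of CYP17A1 and SRD5A1 reached up to 2.04 and 2.23, and those of ESR1, PGR and FSHR down to -1.04, -0.96 and -1.29, so differences up to these sizes could not be resolved with these arrays.

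**Figure D2:**
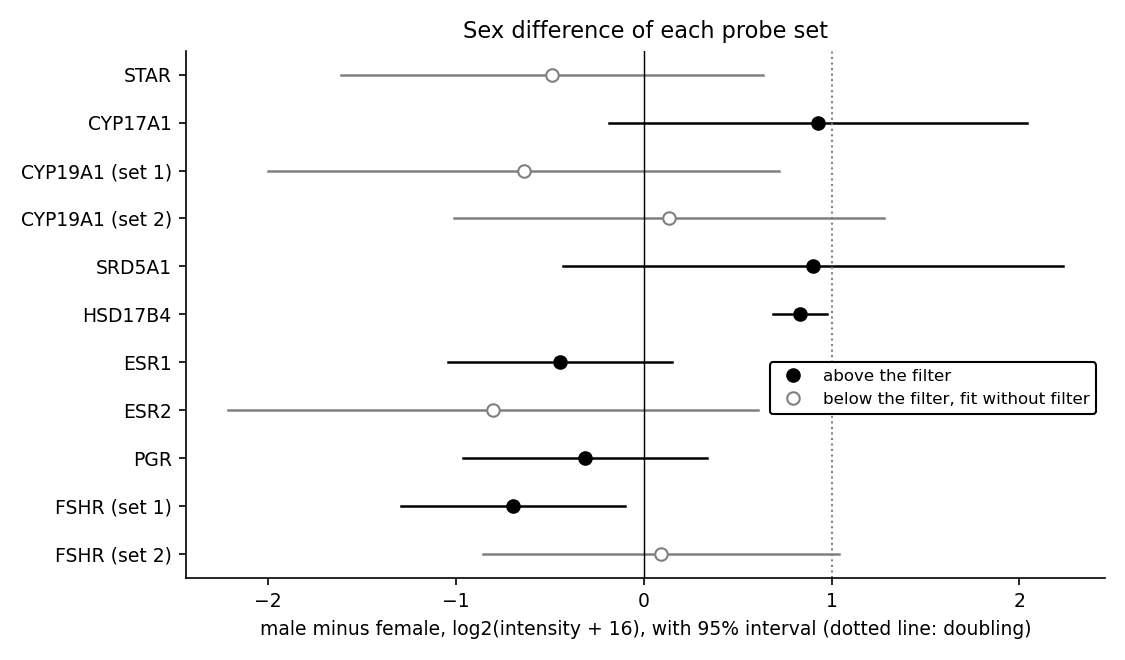
Male minus female difference of each of the 11 probe sets on the log2(intensity + 16) scale with its 95% interval; filled points passed the filter, and open points come from the fit without the filter. Only the HSD17B4 interval of 0.69 to 0.97 is both narrow and far from 0, and the first FSHR probe set, at -0.69, has an interval that excludes 0 before adjustment.

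HSD17B4 was next set against the rest of its chromosome, since a male excess is common on Z. The 492 tested Z genes had a median log2 difference of 0.40, with a middle range of 0.18 to 0.66, and 438 of them were above 0, while autosomal genes had a median of -0.03. HSD17B4 exceeded 428 of the other 491 Z genes (87.2%), and 63 were larger. The 95% intervals of 273 of the other Z genes overlapped that of HSD17B4. Among the 163 brightest of the other Z genes, which had a median difference of 0.49, 137 (84.0%) were below HSD17B4.

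On each array HSD17B4 was also measured relative to the median of the other Z genes. That distance was 2.31, 2.19, 2.28, 2.25 and 2.38 log2 units in males A to E and 1.98, 1.98, 1.83, 1.82 and 2.001 in females A to E, with means of 2.28 ± 0.073 and 1.92 ± 0.089 (SD, n = 5 each). All male arrays exceeded all female arrays, and the difference of 0.36, a ratio of 1.28, had a p of 0.00794 in a two-sided exact permutation test over 252 arrangements, the smallest that 5 against 5 arrays allow. Relative to the autosomal median the distances were 2.41 ± 0.077 in males and 1.57 ± 0.12 in females, a difference of 0.85. The median of those 163 bright Z genes, a baseline added with the results already known, gave a difference of 0.31, a ratio of 1.24. All 3 comparisons had the same exact permutation p of 0.00794, given here without adjustment over the 3. They set the same HSD17B4 values against 3 baselines and so are not separate tests. The autosomal baseline does not compare HSD17B4 with other Z genes. By the 2 Z baselines the male excess of HSD17B4 was larger than that of the median Z gene.

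**Figure D3:**
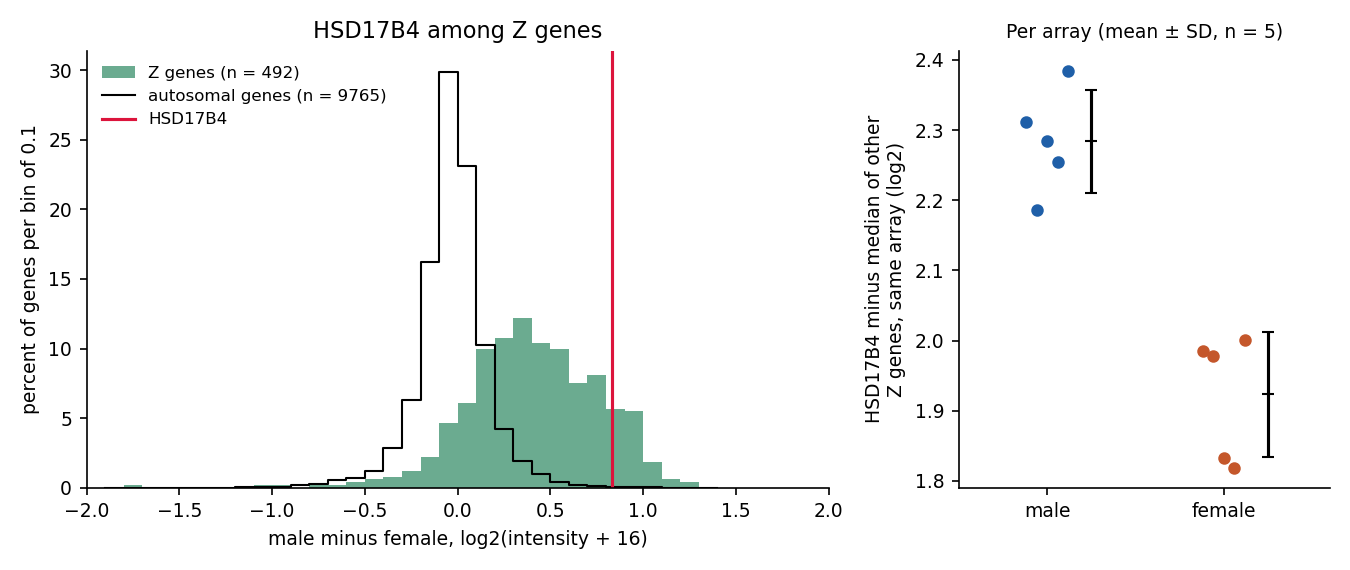
Left, the share of 492 Z genes (filled) and 9765 autosomal genes (line) in bins of 0.1 of the male minus female difference on the log2(intensity + 16) scale, drawn from -2 to 2, with HSD17B4 at 0.83. Right, the distance of HSD17B4 above the median of the other Z genes on each array in log2 units, with the mean ± SD of 5 arrays beside each sex: males lie at 2.19 to 2.38 and females at 1.82 to 2.001.

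The measured neighbours of HSD17B4 in the annotated gene order of Z were mixed. On 1 side, nearest first, PRR16 had a log2 difference of -0.40 (adjusted p = 0.765) and ACO1, a cytosolic aconitase that doubles as an iron sensor, -0.04 (adjusted p = 0.917). DGKQ at 0.48 and TDRD7 at 0.40 did not pass either (adjusted p of 0.0762 and 0.439), while TMOD1, which caps actin filaments in heart muscle, passed at 0.98 ± 0.16 (SE, adjusted p = 0.00207). On the other side TNFAIP8, DMXL1 and SEMA6A stood at 0.30, 0.65 and 0.33 without passing, and COMMD10 and AP3S1 passed at 0.53 and 0.51 (adjusted p of 4.55e-05 and 0.000769). ACO1 was well measured, with means of 10236 in males and 10502 in females and a 95% interval of -0.17 to 0.10, so 1 neighbour with a narrow interval showed no male excess of the size seen in HSD17B4.

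**Figure D4:**
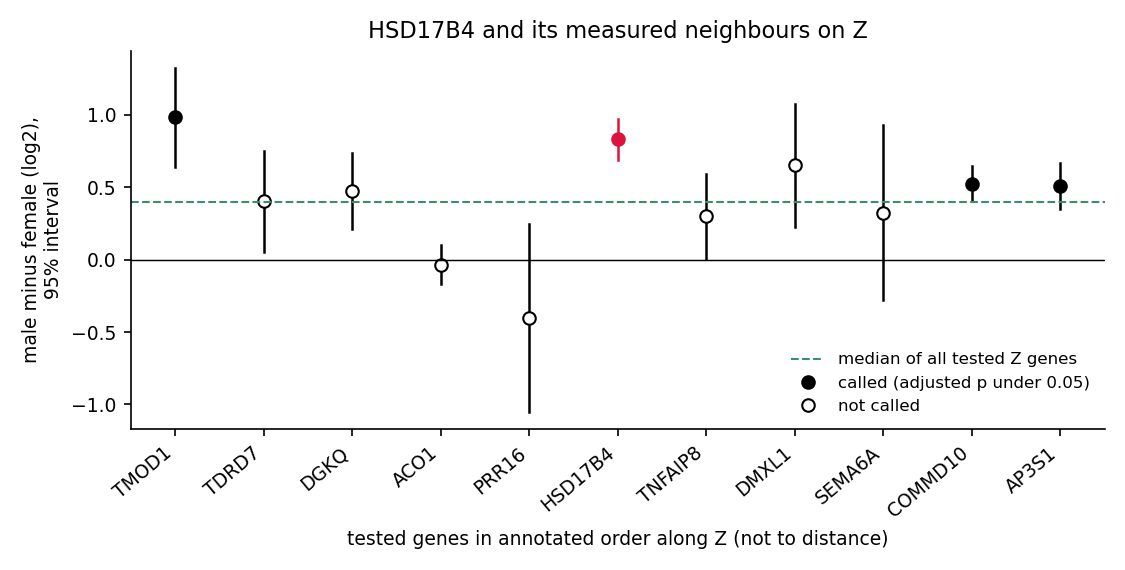
Male minus female differences on the log2(intensity + 16) scale with 95% intervals for HSD17B4 and the 5 tested genes on each side of it, in annotated order along Z and not to distance. Filled points passed the test, and the dashed line is the Z median of 0.40; ACO1 at -0.04 and PRR16 at -0.40 lie beside HSD17B4 at 0.83.

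Other genes of steroid metabolism and response were read from 8 lists, of which 95 genes were on the array, 73 were tested and 22 fell below the filter. Of the 73, 2 rose in males and none fell (2.74%, beside 2.23% of all tested genes). Both are on Z, where 5 of the 73 lie. These 2 of 5 stand beside 40.9% of all tested Z genes that passed in the male direction. None of the 68 tested genes not annotated to Z passed in limma with its variance trend, and their median difference was -0.02, beside -0.03 for autosomal genes. In limma 8 of the 68 had an unadjusted p under 0.05, beside 7.25% of all tested autosomal genes. HSD17B10, whose chromosome is unknown, is counted among the 68 and among the 8.

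In cholesterol delivery and the first steps, 1 of 7 tested genes rose. STARD4, a soluble sterol carrier related to STAR, averaged 2485 ± 277 in male pools and 1543 ± 331 in female pools (SD, n = 5 each) without overlap, a log2 difference of 0.70 ± 0.14 (SE, adjusted p = 0.0163). Leaving out male A, male E or female C ended this call (adjusted p of 0.0548, 0.0561 and 0.0517). FDXR, which supplies electrons to FDX1, averaged 2052 in males and 1771 in females, with a log2 difference of 0.20 ± 0.22 (SE, adjusted p = 0.852). TSPO, a cholesterol-binding protein of the outer mitochondrial membrane, and FDX1, which passes these electrons to mitochondrial P450 enzymes, were bright at means of 9593 and 9318 in males and 10134 and 9435 in females, with log2 differences of -0.08 and -0.02. CYP11A1, which makes the first steroid of the pathway, averaged 81.0 in males and 137 in females, and HSD3B1, which acts next, 89.0 and 124, all below the filter.

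Among other hydroxysteroid dehydrogenases, reductases and sulfation enzymes, none of 12 tested genes passed, and the median difference was 0.05. An unadjusted p under 0.05 in limma was seen for 4 of the 12, namely HSD17B3, HSD17B10, HSD17B7 and SULT1B1. HSD17B3 is on Z and the chromosome of HSD17B10 is unknown, so the 4 are not all autosomal. That p was reached by 7.25% of all tested autosomal genes and by 2098 of the 23063 tested probe sets. HSD17B3, which makes testosterone and lies on Z, averaged 1571 in male pools and 1097 in female pools, a log2 difference of 0.51 ± 0.17 (SE, adjusted p = 0.301). HSD17B7, at 1097 in males and 1425 in females, had -0.40 (adjusted p = 0.527), and SRD5A2, the second reductase of testosterone, had 0.37 (adjusted p = 0.817). HSD17B1 and HSD17B2, which in mammals make and inactivate oestradiol, were below the filter.

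None of the 5 tested other steroid receptors passed, with a median of -0.10. NR3C1, the glucocorticoid receptor, averaged 415 in males (405 to 424) and 609 in females (518 to 766) without overlap, a log2 difference of -0.52 ± 0.23 (SE, adjusted p = 0.493). Without the variance trend NR3C1 passed, with an adjusted p of 0.0443. PGRMC2, a membrane haem and progestin-binding protein, had -0.15 and ESRRG, an orphan receptor of the oestrogen-related family that is known from heart muscle metabolism, had -0.10 at means of 21700 in males and 23314 in females. GPER1, the membrane oestrogen receptor, and ESRRB were below the filter, and the androgen receptor was not analysed here.

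All 13 coregulators and chaperones of steroid receptors were tested, none passed and their median was -0.05. The largest differences were -0.25 for the Mediator subunit MED1 (adjusted p = 0.380), -0.15 for the chaperone HSP90AB1 and -0.14 for the corepressor NCOR1. HSP90AA1, the partner chaperone, averaged 60039 in males and 59854 in females.

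Genes of gonadotropin and inhibin signalling, the setting of FSHR, had 9 tested members, none of which passed, and a median of -0.02. INHBB, an inhibin and activin subunit, had 0.34, LHCGR, the luteinising hormone receptor, 0.29, and TSHR, the thyrotropin receptor, 0.21, with adjusted p of 0.674, 0.926 and 0.872. The plain means of LHCGR went the other way, at 610 in males and 638 in females, and its female arrays ranged from 64.6 to 879. The hormone subunits FSHB and CGA were far below the filter, at means of 105 and 118 in males and 87.8 and 106 in females. These values are heart RNA and do not measure the hormone itself. Of the gonadal and steroidogenic regulators 8 were tested and none passed, with a median of 0.10. DMRT1, the Z-linked male-determining transcription factor of birds, had -0.63 ± 0.23 (SE, adjusted p = 0.332), at means of 784 in males and 1216 in females, opposite in sign to the Z median. NR5A2 had 0.22 and CYP26B1 0.21.

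Of 13 listed genes taken to respond to oestrogen, 5 were tested. Whether each of them responds to oestrogen in birds, or in the heart, was not tested. None passed, and all 5 had a lower mean log2 value in males, with a median of -0.12, where 41.5% of autosomal genes were above 0. The same direction was seen in all 11 heart muscle markers and in 10 of the 13 coregulators and chaperones. Of the 8 tested gonadal and steroidogenic regulators, 2 were lower in males. The summed intensity of all 13 genes on the oestrogen list was 59997 to 62442 in males and 62738 to 68932 in females, without overlap. The sums of the other 7 lists overlapped between the sexes. Most of the sum of these 13 came from CTSD, XBP1 and TF, so it says little of the dimmer genes. XBP1 averaged 22938 in males and 23178 in females, and TF 9694 and 10362. OVALX, an ovalbumin relative, averaged 481 in male pools and 785 in female pools, a log2 difference of -0.71 ± 0.27 (SE, adjusted p = 0.366). GREB1, an oestrogen-induced receptor cofactor, had -0.28, and the lysosomal protease CTSD, at 25394 in males and 27624 in females, had -0.12. The yolk precursor genes VTG1, VTG2 and APOV1 and the egg white genes OVAL, OVALY, LYZ, AVD and the riboflavin-binding RBP were all below the filter. Of the 14 peroxisomal genes, which share the organelle and fatty acid oxidation pathway of HSD17B4, all were tested and 1 rose. AMACR, the Z-linked racemase that prepares branched fatty acids for peroxisomal oxidation, averaged 12425 in males and 7281 in females, and the arrays did not overlap, with a log2 difference of 0.78 ± 0.096 (SE, adjusted p = 0.000142), close to HSD17B4. The other 13 are not on Z and had a median of -0.01, with ABCD3, a peroxisomal fatty acid transporter, at 0.19 and PEX14 at 0.14.

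**Figure D5:**
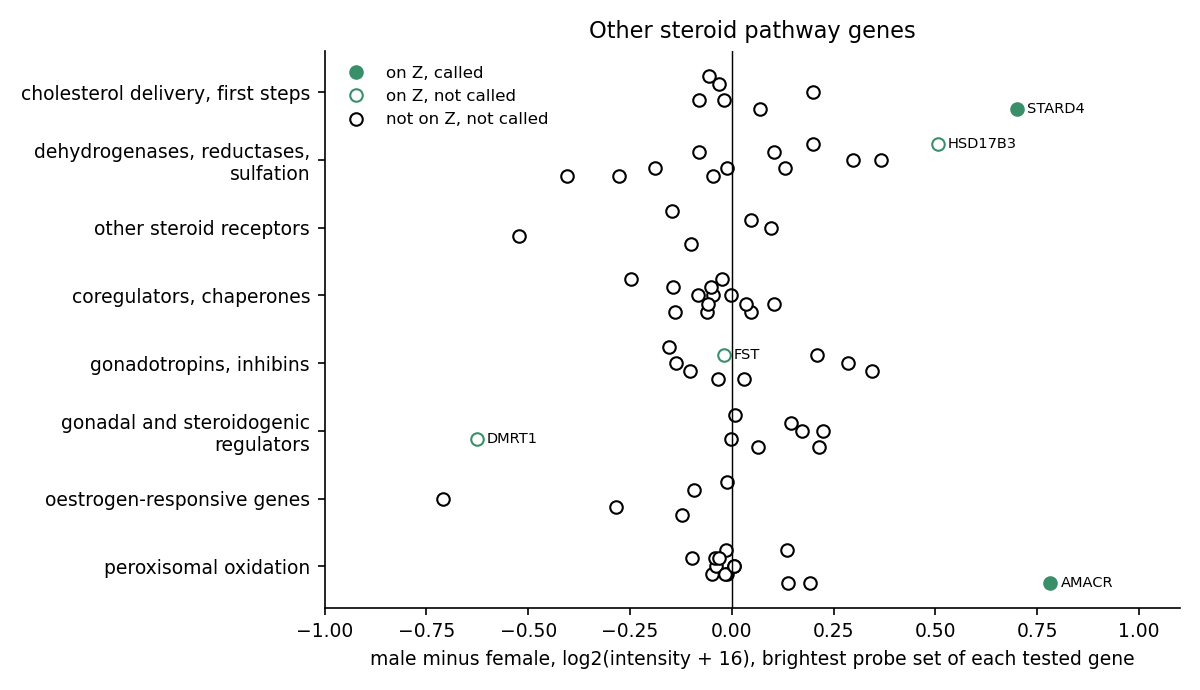
Male minus female difference on the log2(intensity + 16) scale of the brightest probe set of each of the 73 tested genes, 1 row per list; coloured points are on Z and filled points passed the test. The 2 that passed are STARD4 at 0.70 and AMACR at 0.78, both on Z, while DMRT1 at -0.63 is a Z gene on the other side.

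Markers of neighbouring tissues that make or respond to steroids were read in the same arrays. Of 8 gonad markers 6 were tested and none passed, and their summed intensity was 8595 to 11865 in males and 9356 to 12446 in females. Most of it came from AMH, at means of 6501 in males and 7068 in females, while the germ cell genes DDX4 and DAZL were below the filter. Of 6 adrenal markers 3 were tested and none passed, with sums of 4215 to 5481 in males and 4620 to 6303 in females. TH and NR0B1 were the brightest of these, at means of 2641 and 1364 in males and 2754 and 1302 in females. CYP21A1, the adrenal steroid hydroxylase, averaged 328 in males and 681 in females (log2 difference -1.08 ± 0.38, SE, adjusted p = 0.310). CYP11A1, MC2R and DBH were below the filter. Of 8 liver markers 3 were tested and none passed, with sums of 10437 to 15177 in males and 9266 to 15435 in females. Among heart markers PLN, the inhibitor of the calcium pump SERCA, fell in males, by 0.52 on the log2 scale (adjusted p = 0.0238), and the other 10 did not pass. The part of these tissues in the dim signals of the steroid genes was not tested.

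For each tested gene, the 3 genes whose array-to-array deviations from the mean of their own sex were most alike were found among 10278 genes over all 10 arrays. HSD17B4 was most like CWF19L2, MSH4 and SMARCA2, with Pearson r of 0.945, 0.943 and 0.924. Of these SMARCA2, a chromatin remodelling ATPase, is also on Z and rose in males, by a log2 difference of 0.53 (adjusted p = 0.000733), while CWF19L2 and MSH4 are on chromosomes 1 and 8 with log2 differences of -0.0048 and 0.16. ESR1 was most like ZCCHC14, XYLT1 and SUSD6 (0.975, 0.951 and 0.949), PGR like LY86, RIPK4 and ZNF618 (0.929, 0.918 and 0.911), and FSHR like KAZALD1, LOC408038 and EDN2 (0.957, 0.948 and 0.909). CYP17A1 was most like CDH3, YIPF7 and AOC3 (0.927, 0.925 and 0.920), and SRD5A1 like COPS9, P2RX4 and ARL6 (0.941, 0.937 and 0.923). None of the 15 genes listed for these 5 dim members passed the test between the sexes, none of the 18 is another of the steroid genes, and the arrays they are compared over share the same scaling. Such values are the highest of 10278 over only 10 arrays and are given as a description.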

How the data were processed

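The deposited values are intensities per probe set from single-colour arrays, on a linear scale. How the authors summarised and scaled them, and with which software, is not given in the sources used here. Probe sets were named through the platform annotation, which can be old, and chromosomes through the RefSeq gene table of GRCg7b. No coordinates are given, because the deposited values name no build.

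Values were taken as log2(intensity + 16) with the deposited scaling kept, which understates changes of dim probe sets. Tests left out 96 control probe sets, and then the dimmest 40% by mean log2 value over 10 arrays. Males were compared with females by limma 3.58.1 in R 4.3.3, using lmFit and then eBayes with its trend option. P-values were adjusted by Benjamini-Hochberg over all 23063 tested probe sets. Genes read through their brightest probe set kept the adjusted p of that probe set. Only where the probe sets of a gene were averaged did the adjustment run over genes. Single values per array went into an exact permutation test, two-sided. Intervals cover 95%. The procedure was tested on simulated data.

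The genes and lists were chosen with earlier results of these data known. The text names every steroid gene, each list gene that passed and otherwise the 3 largest ratios of a list, 5 measured genes on each side of HSD17B4, 3 similar genes per tested gene and 3 W genes. List genes and markers named beyond that were chosen after their values were seen. Alternatives were the letter as a block, quantile normalization, centring on autosomal genes, other filters, pseudocounts and variance priors, array weights, the mean of probe sets and each array left out. The alternatives chosen after seeing the data were a larger pseudocount of 256 and the 163 brightest Z genes.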

Additional observations from a re-analysis of the deposited data

Results flagged for a closer look

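A single array stood apart from the other 4 of its sex, by the gap to the nearest one set against the group's range, in 2 of 26 groups of 5 arrays, where chance flags about 1 in 20. On the first FSHR probe set male A read 203, while the other males read 415 to 466. On the second CYP19A1 probe set male E read 169, while the other males read 11.1 to 22.3.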

How the results depend on the processing

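HSD17B4 passed under every alternative, with log2 differences from 0.79 to 0.86. Where all probe sets were tested singly, it was the only steroid gene called, and 336 to 422 probe sets were called in all, against 407. When probe sets of a gene were averaged, the other members were not counted. The other tested members passed under none in which they were tested: CYP17A1 ranged from 0.55 to 1.32, SRD5A1 from 0.36 to 1.27, ESR1 from -0.62 to -0.30, PGR from -0.51 to -0.16 and the first FSHR probe set from -0.77 to -0.46, all keeping their sign. The labels do not say that a letter marks a shared origin, and the correlations of same-letter deviations, at 0.204, 0.068, 0.0108, 0.134 and 0.218, were all above 0 but not all clearly so, so letters were not taken as pairs. With the letter as a replicate block 405 probe sets passed, and HSD17B4 minus the Z median (0.36) and minus the autosomal median (0.85) had an exact p of 0.0625, the smallest that 5 pairs allow. The 2 pathway genes called became 1 to 2 when 1 array was left out (STARD4 lost), and 3 without a variance trend, where NR3C1 passed (adjusted p = 0.0443); the cause was not tested. Depth in reads does not apply: dim probe sets limit what can be said of the steroid genes other than HSD17B4.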
